A study of Mus musculus with 2 samples.

Results

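Beta-catenin, the 4 Tcf/Lef factors and 3 targets of the Wnt pathway were followed in single mouse iPSCs, which are induced pluripotent stem cells, made by reprogramming and able to form all tissues of the body. The members were taken by name, 8 of the 27998 genes of the count tables, and all 8 were found in both libraries: Ctnnb1, Lef1, Tcf7, Tcf7l1, Tcf7l2, Axin2, Sp5 and T. The knockout cells (SRFΔ/Δ) lacked Srf, the gene of the transcription factor SRF (serum response factor), and the wild-type cells (SRFf/f) carried both alleles as f, the usual sign for a floxed gene. Both were grown in medium with serum, and how many clones or cultures stood behind each library is not given in the labels. There was 1 droplet library per genotype, so there is no replicate check and no p-value, and each difference is one between these libraries. All intervals are 95% intervals of counting error only.

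Wnt proteins bind Frizzled receptors with the co-receptors Lrp5 and Lrp6 at the cell surface. Without that signal a destruction complex built on Axin and Apc marks beta-catenin, the product of Ctnnb1, for breakdown. With it beta-catenin enters the nucleus and binds the Tcf/Lef factors, which recognise the same DNA motif and act as repressors until beta-catenin joins them. In mouse pluripotent cells Tcf7l1 is known as the repressor that holds down genes of the naive state, while Axin2, Sp5 and T are classical targets.

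Levels were compared in cells with at least 1000 detected genes, a mitochondrial share of 1 to 10% of counts and at most 1 raw UMI (unique molecular identifier, 1 counted transcript molecule) over 8 primitive endoderm genes. These were 592 of 1073 knockout cells, with 14760131 UMIs and a median of 24466.5 per cell, and 880 of 954 wild-type cells, with 22833473 UMIs and a median of 26624 per cell. All 10 pluripotency markers examined were present in both libraries, at a summed 10042.7 and 13173.9 CPM (UMIs scaled to a library total of 1e6). Dppa5a alone was at 7207.7 and 10314.5 CPM, so it makes up most of these sums and of their difference. Of the others, Sox2, Sall4, Zfp42 and Tdgf1 were higher in the knockout library, Pou5f1, Nanog and Tfcp2l1 lower, and Utf1 and Esrrb close. Later sums of this list also include Dppa5a. The rule left 12 knockout and 7 wild-type fibroblast-like cells in, which carried at least 20 UMIs of 8 fibroblast markers. The summed level of those markers was 98.2 CPM in knockout cells against 32.7 in wild-type cells, or 13.0 against 9.34 without these cells. Srf itself had 4 UMIs in knockout cells (0.271 CPM) and 198 in wild-type cells (8.67 CPM). Without the fibroblast-like cells it had 3 and 194. Only 2 barcodes occurred in both libraries, and neither passed the rule in both. Cells also differed in their share of UMIs from chromosome 8, on which none of the 8 genes lies. That share was over 1.2 times its median in wild-type cells of the rule in 278 of the 592 knockout cells (47.0%) and 86 of the 880 wild-type cells (9.77%), so ratios are also given within each class.

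The promoters of the genes show where the shared motif of the Tcf/Lef factors sits. The 250 bases before each RefSeq transcription start (GRCm38.p6) were searched for CTTTGA on both strands, where it reads TCAAAG, and for the CArG box, the motif bound by serum response factor. All 8 genes were in the table, with 14 windows. Of 32851 windows of that length, 13.8% held CTTTGA, 1.37% held at least 2 of them and 1.47% held a CArG box. Among the members CTTTGA was in the windows of Sp5 and T and in 1 of the 4 windows of Lef1. The CArG box was in another window of Lef1 and in 1 of Tcf7. No match was found in the windows of Ctnnb1, Tcf7l1, Tcf7l2 and Axin2, which says only that these letters are not in these windows. The windows of Sp5 (chr2:70474673-70474922) and T (chr17:8434173-8434422) are printed because both genes are targets of the pathway. Those of Lef1 belong to starts inside the gene (chr3:131156044-131156293 and chr3:131112541-131112790). They are printed because they hold matches and Lef1 was the Tcf/Lef factor that was lower in the knockout library. The other windows of Lef1 held no match, and a link between a match and the level was not tested. All 4 printed windows are on the plus strand, read 5′ to 3′, and overlap no exon of GENCODE M21. Capitals mark the motif matches.
Sp5: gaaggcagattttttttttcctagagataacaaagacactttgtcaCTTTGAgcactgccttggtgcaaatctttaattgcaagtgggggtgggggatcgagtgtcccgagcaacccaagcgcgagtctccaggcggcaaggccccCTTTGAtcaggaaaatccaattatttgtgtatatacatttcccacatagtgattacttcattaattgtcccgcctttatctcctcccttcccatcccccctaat
T: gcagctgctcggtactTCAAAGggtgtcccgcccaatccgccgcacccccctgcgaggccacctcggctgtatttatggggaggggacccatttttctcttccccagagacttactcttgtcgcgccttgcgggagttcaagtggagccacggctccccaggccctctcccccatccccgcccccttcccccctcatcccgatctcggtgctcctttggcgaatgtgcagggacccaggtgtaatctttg
Lef1, start with 2 CTTTGA matches: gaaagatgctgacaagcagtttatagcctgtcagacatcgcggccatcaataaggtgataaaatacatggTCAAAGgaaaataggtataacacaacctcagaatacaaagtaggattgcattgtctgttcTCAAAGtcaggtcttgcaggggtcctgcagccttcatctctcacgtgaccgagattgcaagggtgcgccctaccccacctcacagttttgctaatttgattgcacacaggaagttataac
Lef1, start with a CArG box: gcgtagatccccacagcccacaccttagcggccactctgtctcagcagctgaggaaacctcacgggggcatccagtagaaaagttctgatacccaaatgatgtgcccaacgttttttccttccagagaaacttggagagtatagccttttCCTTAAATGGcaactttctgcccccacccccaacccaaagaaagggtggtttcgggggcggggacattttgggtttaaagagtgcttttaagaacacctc

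In Sp5 the matches began 204 and 104 bases before the start, and in T the match began 234 bases before it. In Lef1 they began 180 and 120 bases before one start and the CArG box began 100 bases before the other. These matches are descriptions of the letters and not sites at which binding was measured.

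Within the Tcf/Lef family the libraries differed in 2 of the 4 factors, in opposite directions. Lef1 (ENSMUSG00000027985, chromosome 3, 131110471 to 131224356) was lower in the knockout library and Tcf7l2 (ENSMUSG00000024985, chromosome 19, 55741820 to 55933654) was higher. Tcf7 (ENSMUSG00000000782, chromosome 11, 52252371 to 52283014) and Tcf7l1 (ENSMUSG00000055799, chromosome 6, 72626378 to 72789254) lay close together in the libraries. The 4 factors summed to 1020 UMIs in knockout cells (69.1 CPM, interval 64.9 to 73.5) and 1633 in wild-type cells (71.5, interval 68.1 to 75.1). The log2 ratio of these sums was -0.05 (interval -0.16 to 0.06), so the summed family differed little while its makeup differed. These sums pool both chromosome 8 classes, which differ in Lef1 and Tcf7l1 levels, and were not taken within each class. Lef1 held 13.8% of the family's UMIs in knockout cells (interval 11.8 to 16.1) and 20.7% in the wild type (18.8 to 22.7). Tcf7l2 held 20.2% (17.8 to 22.8) against 12.3% (10.8 to 14.0). Tcf7 held 23.6% and 23.3%, and Tcf7l1 held 42.4% and 43.7%. These shares count UMIs and are compared between the libraries for the same gene, not between genes.

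Lef1, a factor that can activate targets once beta-catenin is bound, had 141 UMIs in knockout cells, a level of 9.55 CPM (interval 8.04 to 11.3). It had 338 UMIs in wild-type cells, a level of 14.8 (interval 13.3 to 16.5). The intervals did not overlap. On the log2 scale the ratio, knockout over wild type, was -0.63 (interval -0.93 to -0.34). For comparison, 6461 genes reached a mean of 10 CPM over both libraries. Their median log2 ratio was 0.06 and the 5th and 95th percentiles were -0.45 and 0.57. The Lef1 level differed between the chromosome 8 classes. Cells with the raised share had a lower Lef1 level than the others in both libraries, 7.01 against 11.9 CPM in knockout cells and 7.51 against 15.6 in wild-type cells. Within cells of the usual share the log2 ratio was -0.38 (interval -0.74 to -0.05), which is under 1.5-fold, and within cells of the raised share it was -0.13 (interval -0.92 to 0.79), on 50 and 17 UMIs. The fibroblast-like cells held 0 Lef1 UMIs of 650790 in the knockout library, which allows up to 4.61 CPM, and without them the ratio was -0.61. The ratio was also just under 1.5-fold with a mitochondrial limit of 5%, with at least 3000 genes or with at least 15000 UMIs per cell (-0.56 in each), and with 0 primitive endoderm UMIs (-0.55).

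Tcf7l2, another factor of the family that binds beta-catenin, had 206 UMIs in knockout cells (14.0 CPM, interval 12.1 to 16.0). It had 201 UMIs in wild-type cells (8.80 CPM, interval 7.63 to 10.1). Knockout over wild type gave a log2 ratio of 0.66 (interval 0.38 to 0.95). In cells with the usual chromosome 8 share the levels were 17.3 and 8.99 CPM, with a log2 ratio of 0.95 (interval 0.61 to 1.27). In cells with the raised share they were 10.4 and 7.06, with a log2 ratio of 0.52 (interval -0.24 to 1.43) on 74 and 16 UMIs. The direction was therefore the same in both classes. With the upper mitochondrial limit at 5% in place of 10%, the ratio was 0.42, and with cells under 1% mitochondrial counts kept it was 0.54, both under 1.5-fold. The primitive endoderm genes summed to 9.89 CPM in knockout and 5.47 in wild-type cells of the rule, and with cells of 0 such UMIs only the ratio was 0.65.

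Tcf7 had 241 UMIs in knockout cells (16.3 CPM, interval 14.3 to 18.5) and 380 in wild-type cells (16.6, interval 15.0 to 18.4), and its log2 ratio was -0.03 (interval -0.27 to 0.21). Tcf7l1 had 432 UMIs (29.3 CPM, interval 26.6 to 32.2) and 714 (31.3, interval 29.0 to 33.7), with a log2 ratio of -0.09 (interval -0.27 to 0.08). For both genes the intervals of the levels overlapped and that of the ratio included 0. In cells of the usual chromosome 8 share the log2 ratio was 0.09 (interval -0.21 to 0.38) for Tcf7 and 0.02 (interval -0.20 to 0.23) for Tcf7l1. In cells of the raised share it was -0.39 (interval -0.89 to 0.16) and 0.37 (interval -0.10 to 0.89). Tcf7l1 was lower in cells with the raised chromosome 8 share in both libraries, with log2 ratios of raised over usual of -0.37 (interval -0.66 to -0.09) in knockout and -0.73 (interval -1.22 to -0.30) in wild-type cells.

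**Figure D1:**
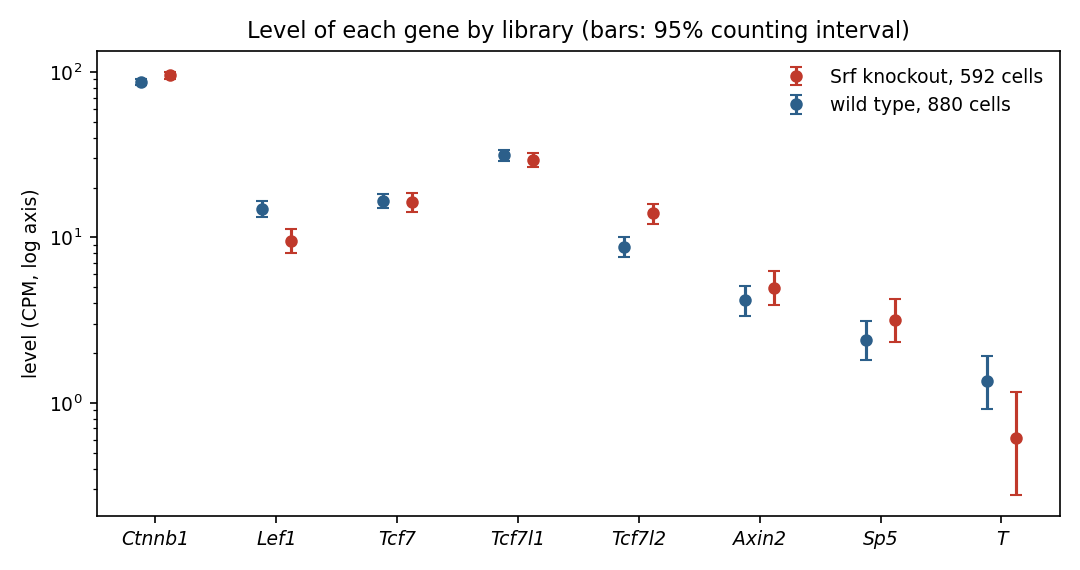
Level of the 8 genes in CPM (log axis) in the knockout (592 cells) and wild-type (880 cells) libraries, with 95% counting intervals as bars. The bars of Lef1 and Tcf7l2 are apart between the libraries, in opposite directions, and those of the other 6 genes overlap.

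Ctnnb1 (ENSMUSG00000006932, chromosome 9, 120929216 to 120960507) encodes beta-catenin, which links cadherins to the cytoskeleton at junctions and carries the Wnt signal to the nucleus. It had 1407 UMIs in knockout cells (95.3 CPM, interval 90.4 to 100) and 1990 in wild-type cells (87.2, interval 83.4 to 91.1). Its ratio was 0.13 on the log2 scale (interval 0.03 to 0.23), close to the median of all genes. In cells of the usual chromosome 8 share it was 0.29 (interval 0.16 to 0.41), and in those of the raised share 0.03 (interval -0.21 to 0.27). When cells under 1% mitochondrial counts were kept it was -0.0037, so the direction at this size depended on that choice of cells.

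The targets were sparse. Axin2 (ENSMUSG00000000142, chromosome 11, 108920349 to 108950783) encodes a scaffold of the destruction complex that is induced by the pathway it restrains. It had 73 UMIs in knockout cells (4.95 CPM, interval 3.88 to 6.22) and 95 in wild-type cells (4.16, interval 3.37 to 5.09), with a log2 ratio of 0.25 (interval -0.21 to 0.70). Within the chromosome 8 classes its ratios pointed in opposite directions, 0.60 (interval 0.04 to 1.14) in cells of the usual share and -0.63 (interval -1.61 to 0.48) in the others. The difference between these ratios was not tested.

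Sp5 (ENSMUSG00000075304, chromosome 2, 70474923 to 70477729), a zinc finger factor and direct target, had 47 UMIs in knockout cells (3.18 CPM, interval 2.34 to 4.23). It had 55 UMIs in wild-type cells (2.41, interval 1.81 to 3.14). Its log2 ratio of 0.40 had an interval from -0.19 to 0.99, so a difference was not detectable at this depth.

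T (ENSMUSG00000062327, chromosome 17, 8434423 to 8442496) encodes Brachyury, a T-box factor of the primitive streak and early mesoderm. It had 9 UMIs in knockout cells (0.610 CPM, interval 0.279 to 1.16), each in a different cell, and 31 UMIs in 16 wild-type cells (1.36 CPM, interval 0.922 to 1.93). Knockout over wild type gave a log2 ratio of -1.10 (interval -2.41 to -0.05). One wild-type cell held 10 of the 31 UMIs. Without the cell of the highest count in each library the ratio was -0.71 (interval -2.15 to 0.47), and with cells of 0 primitive endoderm UMIs only it was -0.28.

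Of the 5 members with at least 10 CPM, 1 (Tcf7l2) was higher in the knockout library by over 1.5-fold and 1 (Lef1) was lower by over 1.5-fold. Over all 6461 genes of that level, 4.72% were higher and 2.48% lower by that much. Both members lie among the 2005 genes of 10 to 20 CPM, of which 6.48% were higher and 3.44% lower. Of the 3 members under 10 CPM only T was past 1.5-fold, on the lower side. Among the 6492 genes of 0.5 to 10 CPM, 17.2% were higher and 10.2% lower by over 1.5-fold, so ratios of this size are common at such low levels. The limits of both level classes were chosen after the values were seen.

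**Figure D2:**
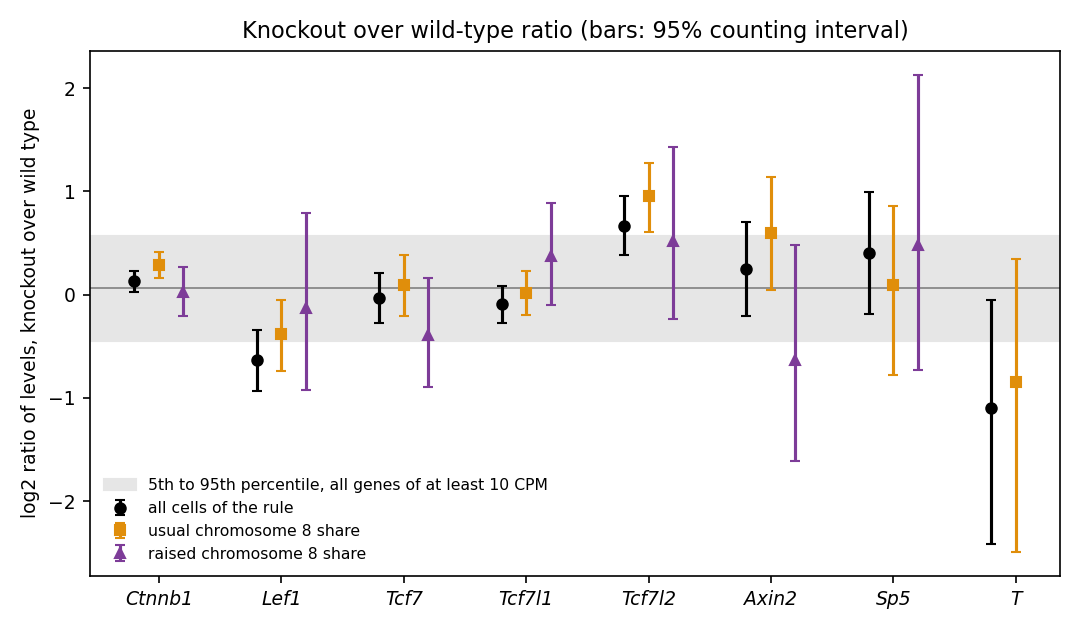
Log2 ratio of levels, knockout over wild type, for each gene in all analysed cells (black circles) and within cells of the usual (orange squares) or raised (purple triangles) chromosome 8 share, with 95% counting intervals. The grey band runs from the 5th to the 95th percentile of all 6461 genes (-0.45 to 0.57). Tcf7l2 is above 0 in all 3 sets, Lef1 moves from -0.63 to -0.38 in cells of the usual share, and the raised-share value of T is not drawn because the wild type had 0 UMIs.

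The share of cells with a UMI was compared at an equal depth of 10000 UMIs per cell, below which lay 63 knockout cells and 78 wild-type cells, left out here. Of 529 knockout cells 7.51% had Lef1 (5.46 to 10.2), and of 802 wild-type cells 11.2% did (9.12 to 13.6). Tcf7l2 was detected in 13.2% (10.5 to 16.4) and 8.45% (6.64 to 10.6). The difference was -3.72 points for Lef1 (interval -6.87 to -0.337) and 4.71 points for Tcf7l2 (interval 1.24 to 8.44), in the same directions as the levels. At full depth the shares were 14.0% and 21.9% for Lef1 and 26.9% and 18.5% for Tcf7l2. In knockout fibroblast-like cells, whose median depth was 25264 UMIs, Lef1 was in 0 of 20 cells at the equal depth, which allows a share of up to 15.0%, and Tcf7l2 in 38.8%. Fibroblast-like cells therefore give no background measure for Tcf7l2.

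For the other 6 genes the interval of the difference included 0. Ctnnb1 was detected in 59.5% of knockout and 56.4% of wild-type cells, Tcf7l1 in 23.6% and 25.7%, and Tcf7 in 15.1% and 14.9%. Among the targets, Axin2 was detected in 4.71% and 4.16%, Sp5 in 2.53% and 2.25%, and T in 0.563% and 0.838%. The highest raw count in a single cell was 15 UMIs for Ctnnb1 and 9 for Tcf7l1, both in knockout cells, and 6 for Lef1, in 3 wild-type cells.

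Cells seldom showed several Tcf/Lef factors at once at this depth. In 1 thinned draw, 52.0% of knockout and 54.4% of wild-type cells had no UMI of the 4 factors, 38.0% and 35.8% had 1 factor and 9.45% and 8.60% had 2. No cell had all 4. Lef1 and Tcf7l2 were together in 5 knockout cells, where independent detection would give 5.35, and in 6 wild-type cells, where it would give 6.54. The cells with Lef1 and those with Tcf7l2 thus overlapped about as often as independent draws would.

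Over single cells no gene followed a member closely. For the members detected in at least 20% of thinned cells of both libraries, Ctnnb1 and Tcf7l1, correlations on log2(thinned count + 1) were taken with 4176 genes over 529 knockout and 802 wild-type cells. The genes most like Ctnnb1 were Ybx3 (mean Pearson correlation 0.18), mt-Co1 (0.17) and Eif4g2 (0.17). Those most like Tcf7l1 were Dppa3 (0.12), Zfp638 (0.11) and Nol6 (0.11). The cells of a library share its preparation and depth, and correlations this weak in sparse counts are no finding.

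**Figure D3:**
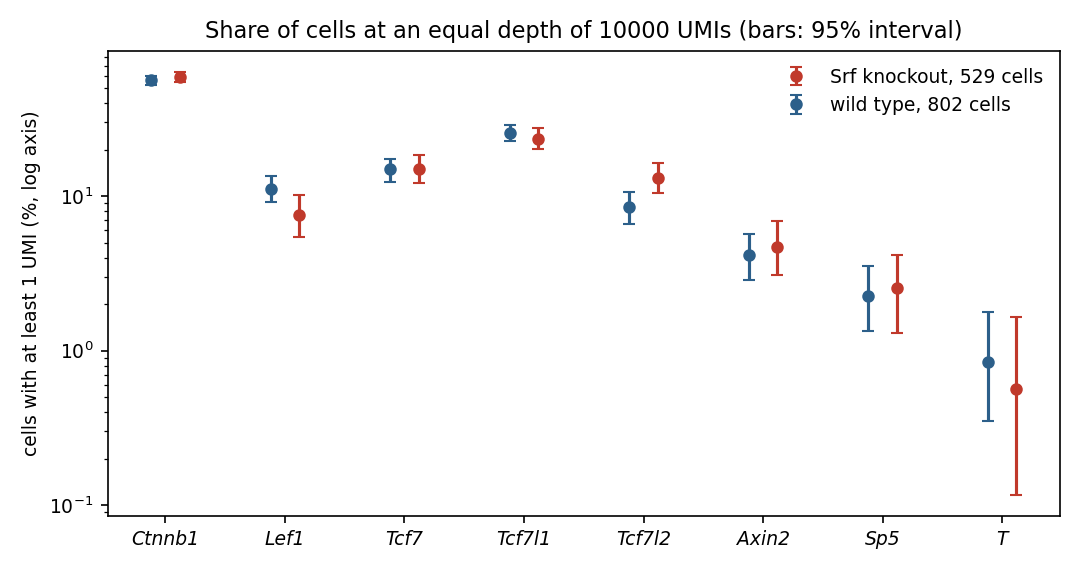
Share of cells with at least 1 UMI of each gene (log axis) at an equal depth of 10000 UMIs, in 529 knockout and 802 wild-type cells, with 95% intervals. Lef1 is at 7.51% and 11.2%, Tcf7l2 at 13.2% and 8.45%, and the intervals of the libraries overlap for all 8 genes.

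The genes were next followed into the cells that the rule leaves out. Knockout cells with at least 10 UMIs of the primitive endoderm genes numbered 95. Primitive endoderm is an early lineage that contributes to the yolk sac, and the 8 genes of the rule summed to 2594.1 CPM in these cells. The 10 pluripotency markers, all present, summed to 4779.0 CPM, against 10218.2 in knockout cells of the rule without the fibroblast-like ones. Of these markers Pou5f1 was at 457 CPM against 753, and Nanog at 4.86 against 73.3. All 6 macrophage markers had UMIs, summing to 470 CPM against 3.66, with 836 of the 1064 UMIs in 1 cell. The 11 primitive streak genes summed to 153 CPM against 7.86. Of these Mesp1, Tbx6 and Msgn1 had 0 UMIs in the 95 cells, so the sum does not stand for the whole list. When cells were kept regardless of primitive endoderm UMIs, the log2 ratio between the libraries moved from -2.18 to 5.09 for Foxa2. For Lhx1 it moved from 0.14 to 3.52, while Mesp1, Tbx6, Wnt3 and Msgn1 moved down. Foxa2 and Lhx1 moved most of the list. The streak genes were not examined individually in the 95 cells. Tcf7l2 stood at 51.7 CPM there (117 UMIs, interval 42.8 to 62.0), against 13.7 in knockout cells of the rule without the fibroblast-like ones, a log2 ratio of 1.92 (interval 1.57 to 2.25). Lef1 had 0 UMIs of 2262835, which allows 1.33 CPM when 0 is taken as up to 3 UMIs. Against that floor Lef1 was 7.34-fold lower than the 9.72 CPM of those cells of the rule. The 95% interval of the log2 ratio ended at -2.56, which allows a somewhat smaller difference. Tcf7 was at 7.51 CPM, with a log2 ratio of -1.11 (interval -1.95 to -0.44). Tcf7l1 was at 28.3 CPM, with a log2 ratio of -0.05 (interval -0.46 to 0.33). In these cells, then, Tcf7l2 was high and Lef1 was not detected, the same direction for each gene as in knockout against wild-type cells of the rule. Tcf7 and Sp5 were also lower in these cells, but their log2 ratios between the libraries, -0.03 and 0.40, had intervals that included 0. Without the 3 cells that held at least 5 macrophage UMIs, Tcf7l2 was at 51.2 CPM and Lef1 still at 0 UMIs. Only 3 wild-type cells met the limit of 10 UMIs.

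Beta-catenin and Axin2 were higher in the same 95 cells. Ctnnb1 was at 172 CPM (interval 155 to 190), a log2 ratio of 0.86 (interval 0.70 to 1.02) over knockout cells of the rule. Axin2 was at 10.6 CPM (interval 6.80 to 15.8), a log2 ratio of 1.09 (interval 0.34 to 1.76). Without the 3 cells of macrophage UMIs the log2 ratios were 0.87 and 1.12. Sp5 had 1 UMI, a log2 ratio of -2.31 (interval -8.21 to -0.33), so it was lower where Axin2 was higher. T also had 1 UMI, too few to show a difference.

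The 56 knockout cells with 2 to 9 UMIs of the primitive endoderm genes were different in Axin2. They held 29 Axin2 UMIs in 10 cells (20.5 CPM, interval 13.7 to 29.4), up to 9 in a single cell, a log2 ratio of 2.04 (interval 1.35 to 2.66) over knockout cells of the rule. Macrophage markers summed to 331 CPM in these cells, and 3 cells held at least 5 of their UMIs. Without those 3 cells all 29 Axin2 UMIs remained, and the log2 ratio was 2.07. Their Tcf7l2 level was 15.5 CPM (interval 9.74 to 23.5) and their Lef1 level 7.06 (interval 3.39 to 13.0), and both intervals included the level of the knockout cells of the rule. With all cells kept regardless of primitive endoderm UMIs, the log2 ratio between the libraries was 1.08 for Tcf7l2, -0.89 for Lef1 and 0.66 for Axin2.

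**Figure D4:**
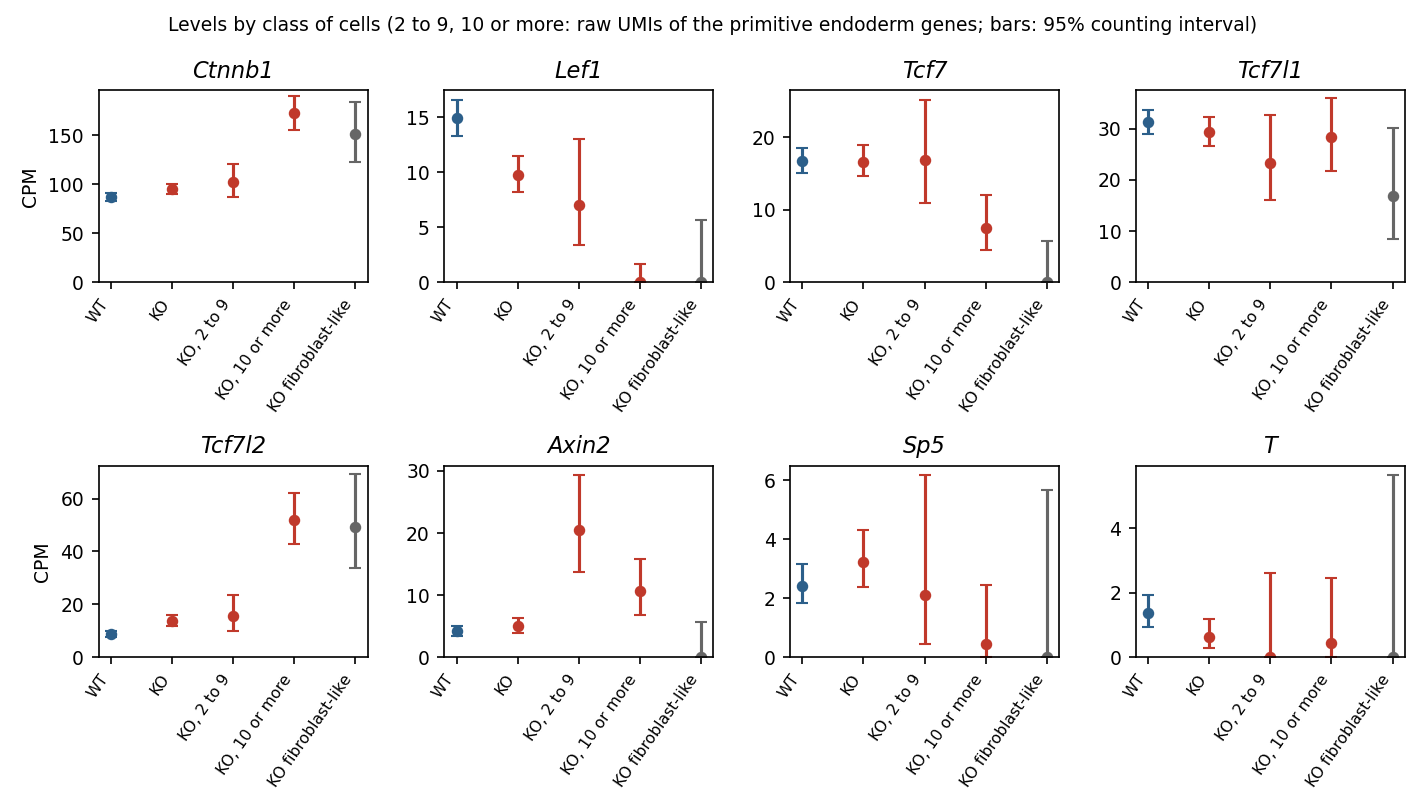
Level of each gene in CPM with 95% counting intervals in wild-type and knockout cells of the rule without fibroblast-like cells, in knockout cells with 2 to 9 and with 10 or more UMIs of the primitive endoderm genes, and in knockout fibroblast-like cells. Tcf7l2 reaches 51.7 CPM where Lef1 is at 0, and Axin2 is at 20.5 in the cells with 2 to 9 such UMIs.

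Knockout cells under 1% mitochondrial counts, 227 cells with at least 1000 genes and at most 1 primitive endoderm UMI, held most members at lower levels. Their median depth was 8552 UMIs, against 24466.5 in knockout cells of the rule, and Axin2 rested on 3 UMIs. Ctnnb1 was at 35.1 CPM (interval 28.2 to 43.2), Tcf7l1 at 5.13 (2.73 to 8.78), Tcf7 at 5.53 (3.02 to 9.27), Tcf7l2 at 5.53 (3.02 to 9.27) and Axin2 at 1.18 (0.244 to 3.46). These intervals lay below those of the knockout cells of the rule. Lef1 was at 7.11 (4.21 to 11.2) and Sp5 at 1.58 (0.430 to 4.04), where the intervals overlapped, and T had 1 UMI. The pluripotency markers summed to 12505.6 CPM in these cells. With these cells kept, the log2 ratio of Tcf7l1 was -0.28 and that of Tcf7l2 was 0.54.

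Fibroblast-like cells, 23 in the knockout library, held Tcf7l2 at 49.2 CPM (32 UMIs, interval 33.6 to 69.4) and Ctnnb1 at 151 (interval 122 to 184). Lef1 and Tcf7 had 0 UMIs in them, where 0 allows up to 4.61 CPM. Axin2, Sp5 and T also had 0 UMIs, but that floor is near or above their levels in cells of the rule, so no contrast can be read. The 10 wild-type fibroblast-like cells held 3 Axin2 UMIs (16.2 CPM). Of the 23 cells 12 met the rule, and without them the log2 ratio of Tcf7l2 between the libraries was 0.65.

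The other genes of the pathway came from lists for each step, 125 genes besides the members. Of these, 46 reached 10 CPM, among which 5 were higher in the knockout library by over 1.5-fold: Myc, Tle4, Chd8, Cdh1 and Fzd7. None of the 46 was lower by that much. Over all 6461 genes of that level 4.72% were higher and 2.48% lower, and 57.8% lay above 0. Their median log2 ratio was 0.08, against 0.06 over all genes of that level. The count was 2, Myc and Tle4, with a mitochondrial limit of 5%, where 2 genes were also lower. It was 9 of 47 genes in cells of the usual chromosome 8 share. The share of all genes past 1.5-fold was not computed in these other settings, so these counts have no background beside them.

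At the surface, none of the 19 Wnt genes reached 10 CPM, and 4 had no UMI in either library. Wnt6 had the highest mean, with 33 UMIs in knockout cells (2.24 CPM) and 36 in wild-type cells (1.58 CPM). Wnt7b had 6 and 43 UMIs, a log2 ratio of -2.11 (interval -3.74 to -0.97). For secretion, Porcn, the acyltransferase that lipidates Wnt proteins, was at 31.4 and 42.3 CPM, a log2 ratio of -0.43 (interval -0.59 to -0.27), and at -0.14 in cells of the usual chromosome 8 share. Wls, the Wnt carrier, had a log2 ratio of 0.27 (interval -0.26 to 0.79). The potentiators Rspo1 and Rspo3 had log2 ratios of -0.29 and 0.70 with intervals that included 0.

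Of 18 receptor genes, 6 reached 10 CPM, 5 of these above 0, and the median log2 ratio of all 6 was 0.40. Over all genes of that level 57.8% lay above 0. Fzd7, a Frizzled receptor of pluripotent cells, was at 28.3 CPM in knockout cells against 18.4 in wild-type cells, and its log2 ratio was 0.62 (interval 0.42 to 0.82). It was under 1.5-fold when cells under 1% mitochondrial counts were kept (0.43), with a mitochondrial limit of 5% (0.55) and with TMM scaling (0.54). Ryk, a Wnt-binding receptor, had a log2 ratio of -0.10 (interval -0.30 to 0.10).

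Among inhibitors, Sfrp1, which binds Wnt proteins outside the cell, was at 47.2 and 51.9 CPM, a log2 ratio of -0.14. Notum, which removes the lipid of Wnt proteins, had a log2 ratio of 0.49 (interval 0.17 to 0.80). The receptor ligase Znrf3 had a log2 ratio of 0.21 (interval -0.24 to 0.65), and Rnf43 had 2 and 3 UMIs. Dvl2 and Dvl1, which relay the receptor signal, had log2 ratios of -0.0022 and 0.15 with intervals that included 0.

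Of the 13 genes of the destruction complex, the 10 with at least 10 CPM all lay within 1.5-fold, as did 92.8% of all genes of that level. They lay between -0.18 and 0.33, with a median of -0.10. The kinases Csnk1a1 and Csnk1e had log2 ratios of -0.13 (interval -0.21 to -0.06) and -0.11 (interval -0.22 to -0.01).

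Of 17 nuclear cofactors, 13 had at least 10 CPM, 11 of them above 0, with a median log2 ratio of 0.18. Over all genes of that level 57.8% lay above 0. Tle4, a corepressor of the Groucho family that binds Tcf/Lef factors, was at 74.8 CPM in knockout cells against 39.6 in wild-type cells, and its log2 ratio was 0.92 (interval 0.79 to 1.04). Chd8, a chromatin remodeller that binds beta-catenin, was at 52.6 and 32.1, a log2 ratio of 0.71 (interval 0.57 to 0.86), and under 1.5-fold with a mitochondrial limit of 5% (0.54) and with cells under 1% mitochondrial counts kept (0.53). The cofactors Ctbp2 (0.17, interval 0.10 to 0.25) and Aes (0.04, interval -0.04 to 0.11) were the most abundant of the list.

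Of the junction partners of beta-catenin, Cdh1, the epithelial cadherin, was at 91.7 CPM in knockout cells against 57.5 in wild-type cells, and its log2 ratio was 0.67 (interval 0.56 to 0.78). Cdh1 lies on chromosome 8, and in cells of the usual share of that chromosome its log2 ratio was 0.41. It was also under 1.5-fold with cells under 1% mitochondrial counts kept (0.47) and with a mitochondrial limit of 5% (0.52). Ctnna1, which joins beta-catenin to actin, had a log2 ratio of -0.13 (interval -0.23 to -0.03).

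Of 17 other known targets, 5 had at least 10 CPM, all above 0, as were 57.8% of all genes of that level, with a median log2 ratio of 0.32. Myc, a growth regulator with many inputs besides Wnt, was at 20.7 CPM in knockout cells against 7.09 in wild-type cells. Its log2 ratio was 1.54 (interval 1.26 to 1.83), and it lay between 1.45 and 1.70 in 11 alternatives. Ccnd1, a cyclin, had a log2 ratio of 0.39 (interval 0.28 to 0.50), and Mycn had 0.03. Among targets under 10 CPM, 2 were chosen for naming after their values were seen. Ascl2 was at 3.05 and 6.74 CPM, a log2 ratio of -1.13 (interval -1.66 to -0.66). Cd44 had a log2 ratio of 2.53, which was 0.02 without the fibroblast-like cells and 0.93 without all cells of at least 5 fibroblast UMIs.

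The 5 genes known to be held down by Tcf7l1 all had at least 10 CPM and lay within 1.5-fold, 4 of them below 0. Over all genes of that level 92.8% lay within 1.5-fold and 57.8% above 0. In cells of the usual chromosome 8 share Esrrb was at 0.19 and Nr5a2 at 0.85, and the others stayed below 0. Klf2 had a log2 ratio of -0.10 (interval -0.15 to -0.06). Nanog was at 72.1 CPM in knockout cells against 102 in wild-type cells, and its log2 ratio was -0.50 (interval -0.60 to -0.39), and at -0.17 in cells of the usual chromosome 8 share. It was past 1.5-fold with a mitochondrial limit of 5% (-0.59) and with primitive endoderm cells kept (-0.74). Tfcp2l1, a factor of the naive state, had a log2 ratio of -0.40 (interval -0.53 to -0.27). It was at -0.61 with a mitochondrial limit of 5% and at -0.15 in cells of the usual chromosome 8 share. Tfcp2l1, Esrrb and Nr5a2 are named here after their values were seen. None of 11 primitive streak genes reached 10 CPM. Eomes had a log2 ratio of -0.26 (interval -0.72 to 0.18). Fgf8 had 10 UMIs in knockout cells against 134 in wild-type cells, and its log2 ratio was -3.05 (interval -4.21 to -2.19) and -1.53 with primitive endoderm cells kept.

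**Figure D5:**
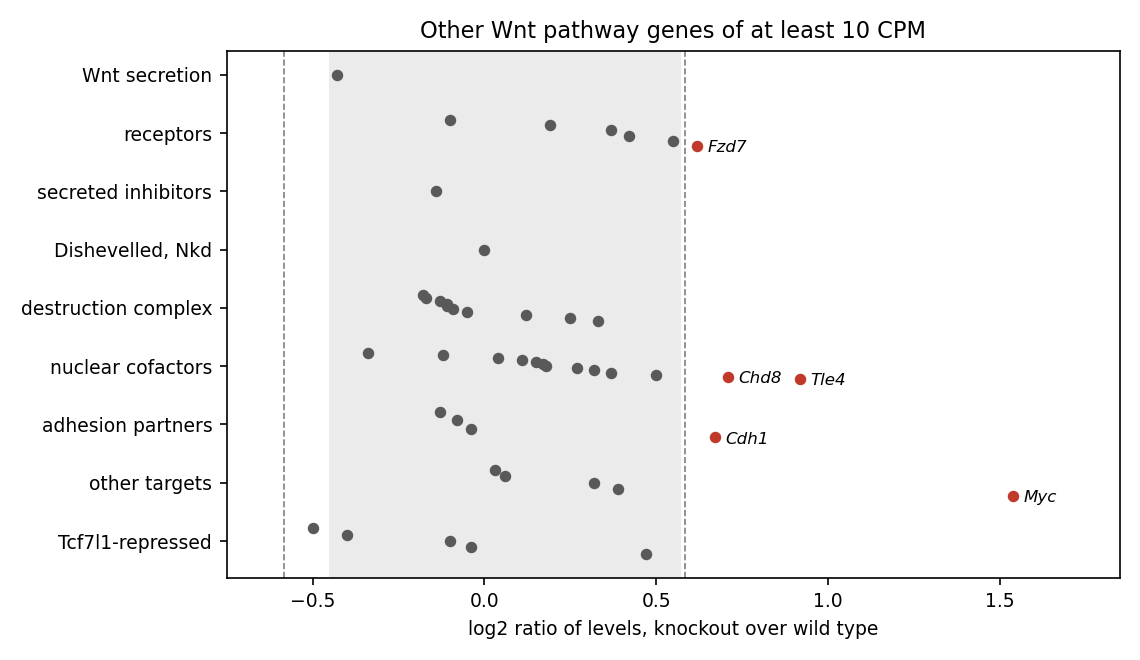
Log2 ratio of levels, knockout over wild type, of the 46 other pathway genes with at least 10 CPM, 1 point per gene in its list. Dashed lines mark 1.5-fold and the grey band the 5th to 95th percentile of all genes (-0.45 to 0.57). The 5 red points past the line are Myc (1.54), Tle4 (0.92), Chd8 (0.71), Cdh1 (0.67) and Fzd7 (0.62).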

How the data were processed

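Cells of 1 Srf knockout and 1 wild-type library were captured on the Chromium droplet platform of 10x Genomics. The deposited values are whole-number UMI counts per gene and cell, not normalised, per the file headers. The submitters' processing notes name Cell Ranger 2.0.0, Seurat 3.1.1 and the build mm10. How droplets were called cells, and how reads of overlapping or near-identical genes were counted, is not given in the sources used here.

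Counts of the kept cells were summed per library and scaled to a total of 1e6 (CPM). Ratios are knockout over wild type on the log2 scale, with 0.5 UMIs added per sum. Genes reaching a mean of 10 CPM entered counts past 1.5-fold. Intervals at 95% are exact (Poisson for levels, binomial conditional on the total for ratios, Clopper-Pearson for shares). Those of differences in shares are approximate and were combined from the bounds of both shares. UMIs of 1 cell and cells of 1 library are not replicates, so intervals cover counting error only. A count of 0 is taken to allow up to 3 counts. Shares of cells are averages over all ways to thin a cell to 10000 UMIs without replacement. Their intervals use the rounded number of cells. Co-detection and correlations use 1 seeded draw. Doublets were called with Scrublet in scanpy 1.11.5 (0 knockout and 2 wild-type cells of the rule) and kept. The caller marked so few cells that doublets must be taken as present.

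Of the 27998 genes, 27645 (98.7%) matched GENCODE M21 (GRCm38) by identifier, which gave positions. Sequences are from RefSeq (GRCm38.p6). The chromosome 8 share used autosomal genes up to 500 CPM, ribosomal protein genes excepted, and was divided by its median in wild-type cells of the rule. The ratio statistics were tested on simulated data. TMM factors came from edgeR 4.0.16, used for scaling only. A planned comparison of the proteins of the family was not made.

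Members and lists were chosen with earlier results of these data known. Named are all members, list genes of at least 10 CPM past 1.5-fold, the 2 genes of highest mean in each list, and the 3 genes most correlated with a member detected in at least 20% of cells.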

Additional observations from a re-analysis of the deposited data

How the results depend on the processing

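No paired analysis was possible because there is a single library of each genotype. Each ratio and share was recomputed with other limits on cells, other scalings and other depths. Leaving out cells of at least 5 fibroblast UMIs, leaving out the highest cell of each library, and leaving out cells of at least 5 macrophage UMIs among those with primitive endoderm UMIs, were chosen after seeing the data. A value was taken as moved when it left the 95% counting interval of the value reported. Of 128 recomputed log2 ratios 123 stayed inside, and of 112 differences in shares 110 did. Intervals of sparse genes are wide and some alternatives alter few cells, such as leaving out called doublets, so these counts are a weak check. The log2 ratio of Lef1 lay between -0.89 and -0.38 and that of Tcf7l2 between 0.42 and 1.08, so both kept their direction in all 16 alternatives. Axin2 lay between -0.02 and 0.66, so its direction did not hold.

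With cells under 1% mitochondrial counts kept, Ctnnb1 changed sign to -0.0037, Tcf7l1 was -0.28 and 2 pathway genes were higher by over 1.5-fold. With primitive endoderm cells kept, Ctnnb1 was 0.27 and Tcf7l2 1.08, and 1 pathway gene was lower. In cells of the usual chromosome 8 share Ctnnb1 was 0.29 and 9 pathway genes were higher. With a mitochondrial limit of 5%, 2 were higher and 2 lower. Other minimums change which genes enter. With a minimum of 1 CPM, 13 of 80 genes were higher and 4 lower, and with none 31 and 17 of 125. The 31 include 4 Wnt genes without a UMI in either library, at 0.63 only because 0.5 UMIs were added to unequal totals. Genes with 1 UMI in all, such as Lgr5, were likewise counted as lower. The share of all genes past 1.5-fold was not computed in the alternative settings. At 2-fold, 1 pathway gene of at least 10 CPM was higher. The difference in cells with Lef1, -3.72 points, was -7.91 points without thinning, and that for Tcf7l2, 4.71 points, was 0.588 points when at least 2 UMIs were required, both as detection itself changes with the setting. Where nothing else is stated the cause was not tested. Depth limits Axin2, Sp5 and T most, with 73, 47 and 9 UMIs in knockout cells.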

Other observations

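The 16 wild-type cells with a T UMI, with a median of 31716.5 UMIs per cell, were high in Fgf8, while Eomes and Mixl1 showed no detectable rise. They held 43 Fgf8 UMIs in 3 cells (82.9 CPM, interval 60.0 to 112), against 91 UMIs in 49 of the other 864 wild-type cells (4.08 CPM, interval 3.28 to 5.01). Eomes was at 3.85 CPM in the cells with T (2 UMIs, interval 0.467 to 13.9), against 5.33 in the others, and Mixl1 had 0 UMIs in them. Lef1 was at 15.4 CPM in them, against 14.8 in the others. Sp5 was at 13.5 CPM in them (7 UMIs in 4 cells, interval 5.42 to 27.8), against 2.15 in the others (interval 1.59 to 2.85). Axin2 had 0 UMIs in them, with an upper interval bound of 7.11 CPM, and was at 4.26 CPM in the others, so no difference was detectable. Nanog was at 50.1 CPM (interval 32.7 to 73.4) against 103 in the others. In the 9 knockout cells with T, Fgf8 and Sp5 both had 0 UMIs, and Nanog was at 70.4 CPM against 72.1 in the others. So few cells carry these values that 1 or 2 cells can set them.

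Knockout cells over 10% mitochondrial counts numbered 73 and held Ctnnb1 at 202 CPM (interval 167 to 241), against 99.3 (interval 64.8 to 145) in the 33 such wild-type cells. The primitive endoderm genes summed to 244 CPM and the macrophage markers to 237 in these knockout cells, with Sox17 and Pf4 at 0. In the wild-type cells the primitive endoderm genes summed to 7.64 and all 6 macrophage markers were at 0. The part of these markers in the Ctnnb1 difference was not tested.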
